A study of Homo sapiens with 42 samples.

Results

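Among the m6A peaks of HepG2 cells, a human hepatocellular carcinoma line, 1413 of 33672 (4.2%) were called in the control, METTL3 and SETD2 #1 lists but in neither the METTL14 nor the WTAP list. They were chosen by the authors' own peak calls. A peak of the control list was taken when no peak of the METTL14 list and none of the WTAP list shared 1 or more bases of its blocks on the same strand, while such a peak stood in both the METTL3 list and the SETD2 #1 list. They are called METTL14/WTAP-absent peaks here. Absent means only that no peak was called, and the word says nothing of methylation that remained below the threshold of the peak caller.

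All cells carried a lentiviral short hairpin RNA (shRNA) under puromycin selection, the controls included. The knockdown lines had an shRNA against METTL3, against METTL14, against WTAP, or against SETD2 (shRNA #1), and the control line had a non-specific shRNA. A further SETD2 shRNA, #2, had a non-specific control line of its own, called the second control; these lists are named the second set, and the other 5 the first set. Each of the 7 conditions had 3 input and 3 immunoprecipitated (IP) libraries, 42 in all, and the authors' peak caller joined the replicates into 1 list per condition. No value below therefore has a replicate error or a test between conditions, and the intervals given are exact 95% binomial intervals that cover counting error only. The labels number the replicates without saying whether they were separate cultures, and METTL3, METTL14 and WTAP were each reduced by 1 shRNA, whose effect on its target was not analysed here.

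m6A is a methyl group on adenosines inside messenger RNA that is placed as transcripts are made, and it marks many long exons and the region around stop codons. METTL3 carries the catalytic site of the methyltransferase, METTL14 is its structural partner that helps to hold the RNA, and WTAP is an adaptor that brings the complex to nuclear speckles. SETD2 is the histone methyltransferase that lays down H3K36me3 over the bodies of transcribed genes, a mark that METTL14 has been reported to bind. In m6A-seq, RNA fragments pulled down with an antibody against m6A are compared with the unselected input, and fold enrichment is the ratio of IP over input at a peak.

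The peaks were weakly enriched. Their median fold enrichment in the control list was 3.09, with the middle 50% between 2.26 and 4.86, against 9.21 for the 19163 control peaks found in all 4 knockdown lists and 6.79 over all control peaks. Only 121 of them (8.56%) reached a fold enrichment of 10, a level met by 37.3% of all control peaks, and 230 (16.3%) stayed under 2, against 7.0% of all control peaks. Their statistical support was weaker than in both groups: the median log10 of the authors' p-value was -8.67, against -36.3 for peaks in all 4 lists and -11.8 over all control peaks. Most were short and lay within a single exon block. The median width was 211 bases, against 390 for peaks in all 4 lists and 269 over all, and 79.2% had 1 block, against 50.2% and 61.2%. Peaks absent from only 1 of the METTL14 and WTAP lists were more alike. Those absent from WTAP alone had a median log10 p of -8.21, a median width of 211 bases and 70.3% with 1 block. For those absent from METTL14 alone the values were -9.47, 240 bases and 74.9%. These levels come from the same control list whose peaks were selected on presence or absence elsewhere, so they are a description and no finding.

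**Figure D1:**
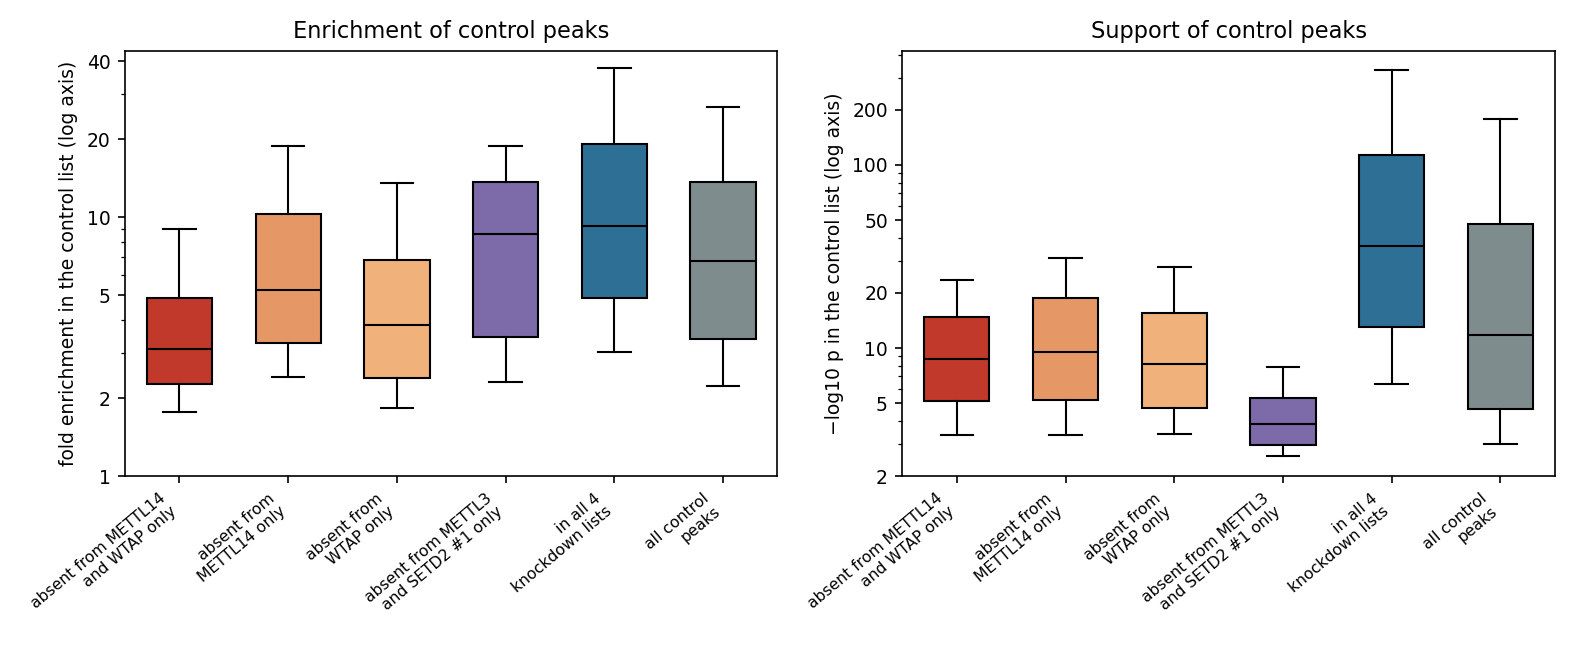
Fold enrichment (left) and −log10 p (right) in the control list, both on log axes, for METTL14/WTAP-absent peaks and 5 other groups of control peaks; boxes hold the middle 50% with the median as a line, and whiskers reach the 10th and 90th percentiles of peaks. The METTL14/WTAP-absent peaks have the lowest median fold enrichment of the 6 groups, 3.09, while their median p-value lies between those of the peaks absent from METTL3 and SETD2 #1 only and those in all 4 lists.

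Other combinations of the same 4 lists show where the pattern stands. By choice, all 1413 peaks lacked a METTL14 peak and a WTAP peak, as did 29.8% and 28.8% of all control peaks, and none lacked a METTL3 or SETD2 #1 peak, as did 22.8% and 27% of all control peaks. Absence from both the METTL14 and WTAP lists, whatever METTL3 and SETD2 #1 showed, covered 7684 control peaks, or 22.8%. Of these, 4075 were missing from all 4 lists, 1187 were also missing from METTL3 but not from SETD2 #1, and 1009 were also missing from SETD2 #1 but not from METTL3. Of the pairs of lists that can lack a peak together, the METTL14 and WTAP pair did so, with the other pair of lists calling the peak, for 1413 peaks, against 222 to 499 for each of the other 5 pairs. The converse pattern, peaks missing from METTL3 and SETD2 #1 and called with METTL14 and WTAP, held 498 peaks (1.48%), with a median fold enrichment of 8.57 and a median log10 p of -3.87. These counts share 1 control list, so they are set side by side and nothing is read from how often absences fell together.

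The peaks were spread over many genes. They lay in 1280 of the 14570 genes of the control list: 1169 genes held 1 of them, 92 held 2, 16 held 3 and 3 held 4. The files pair gene identifiers with no symbols, so peaks are named here by their hg19 position. In 43 cases a pair of these peaks shared bases, as did chr20:35240455-35240633 and chr20:35240462-35240639, which the files assign to different genes. For 259 genes, all control peaks were of this kind, and 244 of those genes had a single control peak. A total of 372 genes (29.1%) had no peak in either the METTL14 or the WTAP list, while 799 had a peak in both (62.4%). Over all genes of the control list, 12.6% had no peak in either list and 78.0% a peak in both, a comparison that the choice itself bears on.

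The best supported of these peaks had low enrichment. The 10 with the best control p-values ranged from -337 to -75.4 in log10 p and from 1.51 to 5.52 in fold enrichment. The first, chr2:21233625-21233834 on the minus strand, had a fold enrichment of 1.67 in METTL3 and 1.85 in SETD2 #1, against 2.04 in the control, and of 2.22 in SETD2 #2, against 1.89 in the second control. A neighbour in the same gene, chr2:21229461-21229671, gave 1.46 in METTL3 and 1.35 in SETD2 #1, against 1.65 in the control, and 2.14 in SETD2 #2, against 1.49 in the second control. In both peaks METTL3 and SETD2 #1 lay below the control, and SETD2 #2 lay above the second control. The peaks were ranked on the control list, so nothing is read from a control value that is highest, here or below.

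The second best, chr7:5567230-5567469 on the minus strand, had a fold enrichment of 1.5 in METTL3 and 1.95 in SETD2 #1, against 2.05 in the control, and of 1.86 in SETD2 #2, against 1.53 in the second control. The highest enrichment among the 10 belonged to chr5:82836940-82837239 on the plus strand, with 4.72 in METTL3 and 3.19 in SETD2 #1, against 5.52 in the control, and 3.09 in SETD2 #2, against 2.75 in the second control. In both, the control was the highest list of the first set, and SETD2 #2 lay above the second control. A different order appeared at chr17:16284924-16285382 on the plus strand, which had 1.42 in METTL3 and 1.67 in SETD2 #1, against 1.66 in the control, but 3.24 in SETD2 #2, against 4.14 in the second control. All 10 overlapped a peak in SETD2 #2 and 9 of 10 a peak in the second control. The exception was chr1:230838745-230838923 on the minus strand, with 1.33 in SETD2 #2 and no peak in the second control. Of all control peaks in the strongest of 5 equal classes by p-value, 98.0% overlapped SETD2 #2 and 98.9% the second control. The counts among these 10 are therefore no finding.

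**Figure D2:**
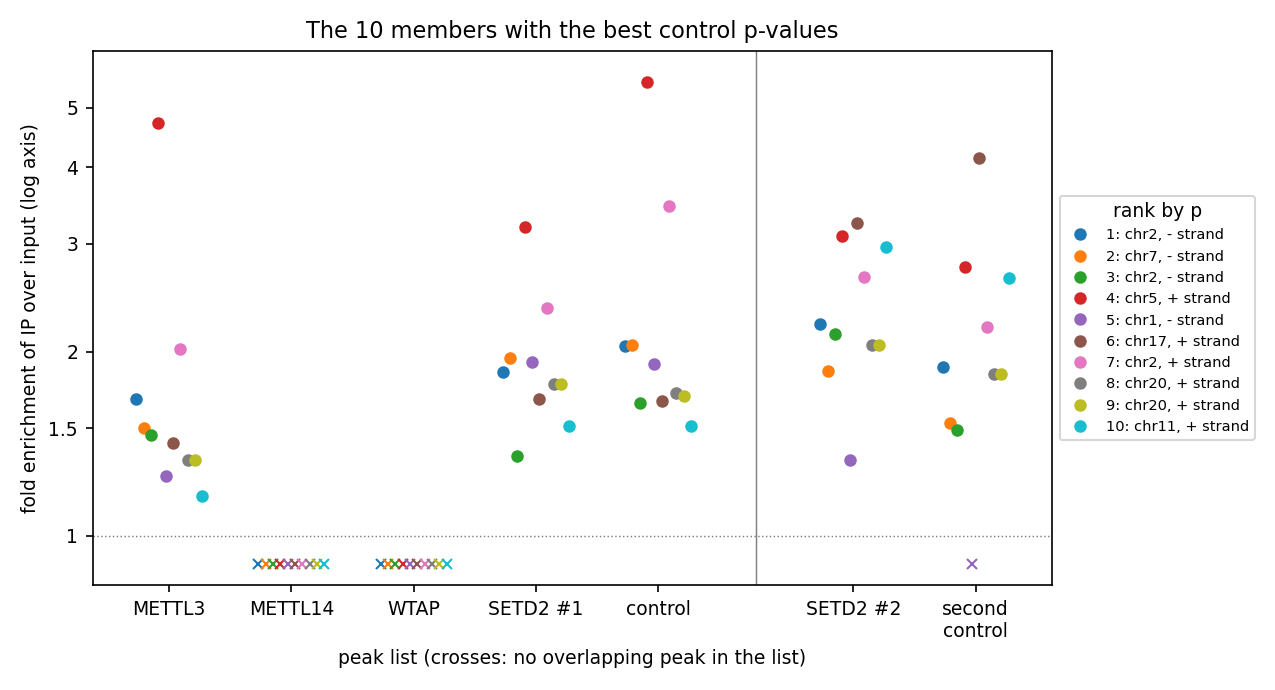
Fold enrichment of IP over input (log axis) at the 10 METTL14/WTAP-absent peaks with the best control p-values, in the 5 lists of the first set (left of the line) and in SETD2 #2 and the second control (right); each colour is 1 peak and crosses mark a list without an overlapping peak. The crosses under METTL14 and WTAP follow from how the peaks were chosen, and most points in the other lists lie between a fold enrichment of 1 and 3.

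Fewer of the most enriched peaks were found in the second set. The 10 with the highest fold enrichment in the control ranged from 23.1 to 44.6, with log10 p between -19.5 and -6.64. The top one, chr12:112035765-112036701 on the minus strand, had a fold enrichment of 17.8 in METTL3 and 13.4 in SETD2 #1, against 44.6 in the control, and no peak in SETD2 #2 or in the second control. Next came chr12:3919740-3919950 on the minus strand, with 10.1 in METTL3 and 11 in SETD2 #1, against 36 in the control, and again no peak in the second set. METTL3 was lower than the control at 9 of the 10 and SETD2 #1 at all 10. Lower values in other lists follow in part from ranking on the control value, so these counts are no finding. The exception for METTL3 was chr17:5389724-5390413 on the plus strand, with 34.5 in METTL3 and 2.71 in SETD2 #1, against 23.1 in the control. Only 4 of these 10 overlapped a peak in SETD2 #2 and 5 of 10 a peak in the second control. Of all control peaks in the highest of 5 equal classes by fold enrichment, 79.9% and 89.2% did. That class was not matched to these 10 in p-value. The peak chr6:116757871-116758291 on the plus strand, one of those found in both, had 7.36 in METTL3 and 12.6 in SETD2 #1, against 24.9 in the control, and 7.19 in SETD2 #2, against 11.1 in the second control. The best supported peaks with no counterpart in the second set were led by chr4:100870469-100870678 on the minus strand, with 2.90 in METTL3 and 1.60 in SETD2 #1, against 2.78 in the control.

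Runs of neighbouring peaks within 1 gene showed how close these peaks stood to peaks that were kept. Gene ENSG00000084674.13 on chromosome 2 had 15 control peaks, of which METTL3 and SETD2 #1 kept all 15 while METTL14 and WTAP each lacked 3, the same 3. At the 5′-most peak of the gene, fold enrichment reached 34.8 with METTL3 knockdown, 11.5 with METTL14, 56.9 with WTAP and 18.6 with SETD2 #1, against 58.7 in the control. The 3 missing peaks had control values of 2.04, 1.55 and 1.65. Control values as low were also found at kept peaks of the gene: its 11th peak gave 1.82 with METTL3 knockdown, 1.49 with METTL14, 1.24 with WTAP and 1.67 with SETD2 #1, against 1.62 in the control. The 7th gave 1.76 with METTL3 knockdown, 1.24 with METTL14, 1.07 with WTAP and 1.46 with SETD2 #1, against 2.05 in the control. At both of these kept peaks METTL14 and WTAP were the lowest lists of the first set.

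Gene ENSG00000177853.14 on chromosome 10 had 6 control peaks, and the 4 nearest its 5′ end were METTL14/WTAP-absent. Their fold enrichment was 2.06 to 3.81 in METTL3 and 2.56 to 3.83 in SETD2 #1, against 2.01 to 3.35 in the control. The 5th peak, kept in all lists, gave 5.6 with METTL3 knockdown, 3.69 with METTL14, 4.68 with WTAP and 8.15 with SETD2 #1, against 8.45 in the control. Here the weaker peaks of the gene were those without a METTL14 or WTAP call, apart from the last, which was kept at a control value of 2.30. A gene on chromosome 2 with 6 control peaks, 4 of them METTL14/WTAP-absent, had control values of 2.29, 2.79, 2.72 and 2.36 at those 4 and of 11.3 at its 5′-most peak, which all lists kept. A gene on chromosome 5 with 8 control peaks had 4 such peaks at higher control values, 14.6, 11.1, 6 and 7.29, with log10 p no stronger than -4.03, and the WTAP list held no peak of it. A gene on chromosome 4 with 18 control peaks had 3 METTL14/WTAP-absent peaks, at control values of 2.14, 2.54 and 1.97. The METTL14 list and the WTAP list did not always change alike there: METTL14 lacked 1 more peak that WTAP called, and WTAP lacked 2 that METTL14 called.

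**Figure D3:**
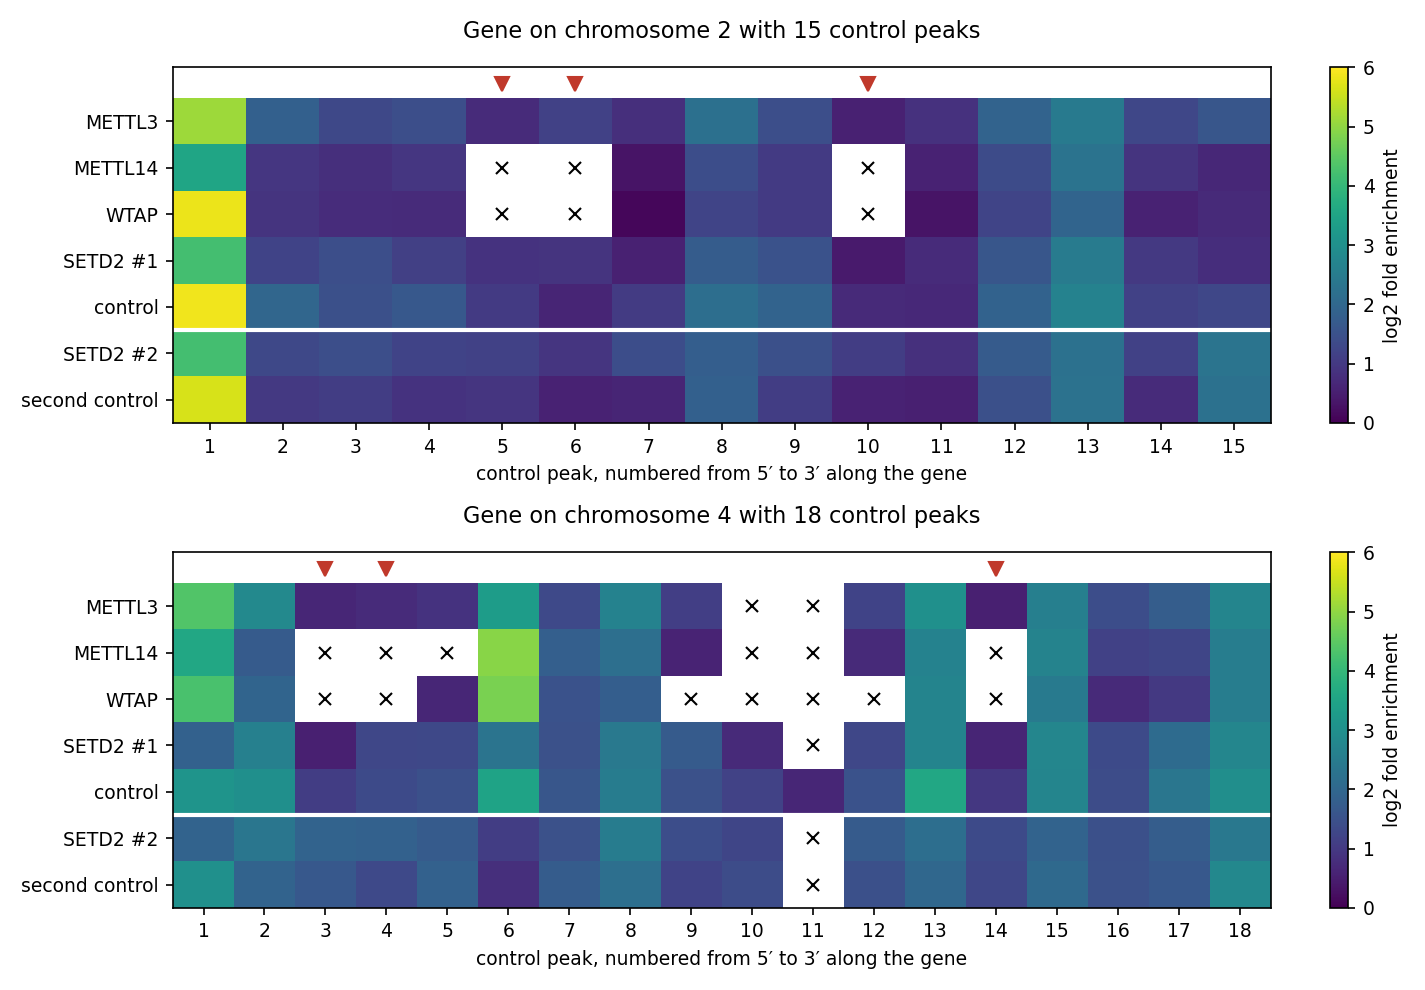
Log2 fold enrichment by list (rows) at each control peak, numbered from 5′ to 3′, for the chromosome 2 gene with 15 control peaks and the chromosome 4 gene with 18; crosses mark lists with no overlapping peak and red triangles the METTL14/WTAP-absent peaks. The white line parts the first set from SETD2 #2 and the second control, and in both genes the red triangles stand at columns of low control enrichment.

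Across all 1413 peaks, the METTL3 and SETD2 #1 calls on which the choice rested were weaker than the control calls. Matched METTL3 peaks had a median fold enrichment of 2.58, against 3.09 in the control, with a median ratio per peak of 0.847 and 68.9% of ratios below 1. Matched SETD2 #1 peaks had a median of 2.71, a median ratio of 0.886 and 63.1% of ratios below 1. They were also narrower, at a median width ratio of 0.716 for METTL3 and 0.801 for SETD2 #1, and their median log10 p was -4.70 and -5.14. For peaks in all 4 lists the median ratio over the control was 0.964 for METTL3 and 0.751 for SETD2 #1, and the median width ratio 0.947 and 0.889. These groups differ in control fold enrichment and both were selected on METTL3 and SETD2 #1 calls, so nothing is read from the ratios.

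Distance to the METTL14 and WTAP lists follows in part from the choice, which took out every overlapping peak, and is given as a description. The nearest METTL14 peak on the same strand stood at a median of 11692 bases, introns included, and the nearest WTAP peak at 10355. Within 100 bases there was a METTL14 peak for 33 (2.34%) and a WTAP peak for 32 (2.26%) of the 1413. At the edge of the criterion, 17 of the peaks had a METTL14 or WTAP peak at most 30 bases away, with a median control fold enrichment of 3.00, a median log10 p of -4.00 and a median width of 121 bases. Just outside it, 39 control peaks called in METTL3 and SETD2 #1 overlapped METTL14 or WTAP by at most 30 bases, with medians of 3.00, -3.38 and 140 bases.

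SETD2 #2 and the second control took no part in the choice. Of the METTL14/WTAP-absent peaks, 71.7% (69.3 to 74.0%) overlapped a SETD2 #2 peak, against 65.6% of all control peaks. In the second control the share was 72.0% (69.6 to 74.4%), near the 71.4% of all control peaks. Peaks in all 4 knockdown lists were recovered more often, in 83.0% with SETD2 #2 and 88.0% in the second control. Both second-set lists held 869 of the 1413 (61.5%), against 60.6% of all control peaks, and neither held 251 (17.8%), against 23.5% of all control peaks. Every METTL14/WTAP-absent peak stood in 2 further lists by choice, whereas all control peaks include those found in no other list. The 5 other patterns with 2 lists lacking the peak had 25.9 to 56.8% in SETD2 #2 and 35.3 to 64.4% in the second control. Those without a SETD2 #1 peak had 25.9 to 33.1% in SETD2 #2, and those with one 46.6% and 56.8%. All 5 had weaker support, at a median log10 p of -4.62 to -3.87, against -8.67, so the shares are not of like peaks.

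The order among peaks of like strength depended on the measure of strength. The control list was cut into 5 equal classes by p-value, from the weakest to the strongest, and the comparison groups were weighted to the class mix of the METTL14/WTAP-absent peaks. On that scale the SETD2 #2 share of 71.7% stood beside 62.1% for peaks in all 4 lists and 59.1% for all control peaks. The second control share of 72.0% stood beside 71.5% and 66.5%. Weighted to classes of control fold enrichment instead, peaks in all 4 lists came out above the METTL14/WTAP-absent peaks, at 75.5% in SETD2 #2 and 78.3% in the second control, and all control peaks below, at 61.7% and 64.4%. Weighted to both measures together, peaks in all 4 lists had 61.4% in SETD2 #2 and 66.9% in the second control. Peaks absent from only 1 of the METTL14 and WTAP lists came nearer in SETD2 #2. Weighted by p-value, it held 68.7% of those absent from WTAP alone and 64.9% of those absent from METTL14 alone. By fold enrichment the shares were 71.8% and 70.6%, and by both measures 70.5% and 68.3%. In the second control, both measures gave 76.2% and 71.7%.

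Class by class the same contrast appeared. In the weakest class by p-value, SETD2 #2 held 45.8% (39.2 to 52.5%) of the METTL14/WTAP-absent peaks, against 30.4% (27 to 34%) of peaks in all 4 lists. In the third class it held 80.9% (77.4 to 84.1%), against 73.3% (71.9 to 74.6%). For SETD2 #2 the METTL14/WTAP-absent peaks were thus above kept peaks in each of the 5 p-value classes, though the intervals parted only in the 3 weaker ones and the strongest held 12 of these peaks. By fold enrichment they were above kept peaks only in the lowest class, with 79.7% (76.4 to 82.7%), against 68.8% (66.6 to 70.9%), and below in the other 4. The next class gave 70.2% (65.7 to 74.5%), against 78.7% (77.2 to 80.0%), and the highest, with 38 of these peaks, 42.1% (26.3 to 59.2%), against 88.2% (87.3 to 89.0%). For the second control and p-value classes they were above in the 2 weaker classes and below in the 3 stronger ones, with 77.7% (74.1 to 81.1%), against 82.3% (81.0 to 83.4%), in the third. Of the peaks found in the second control, 85.4% (83.0 to 87.5%) were also in SETD2 #2, against 84.8% for all control peaks and 91.4% for peaks in all 4 lists.

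**Figure D4:**
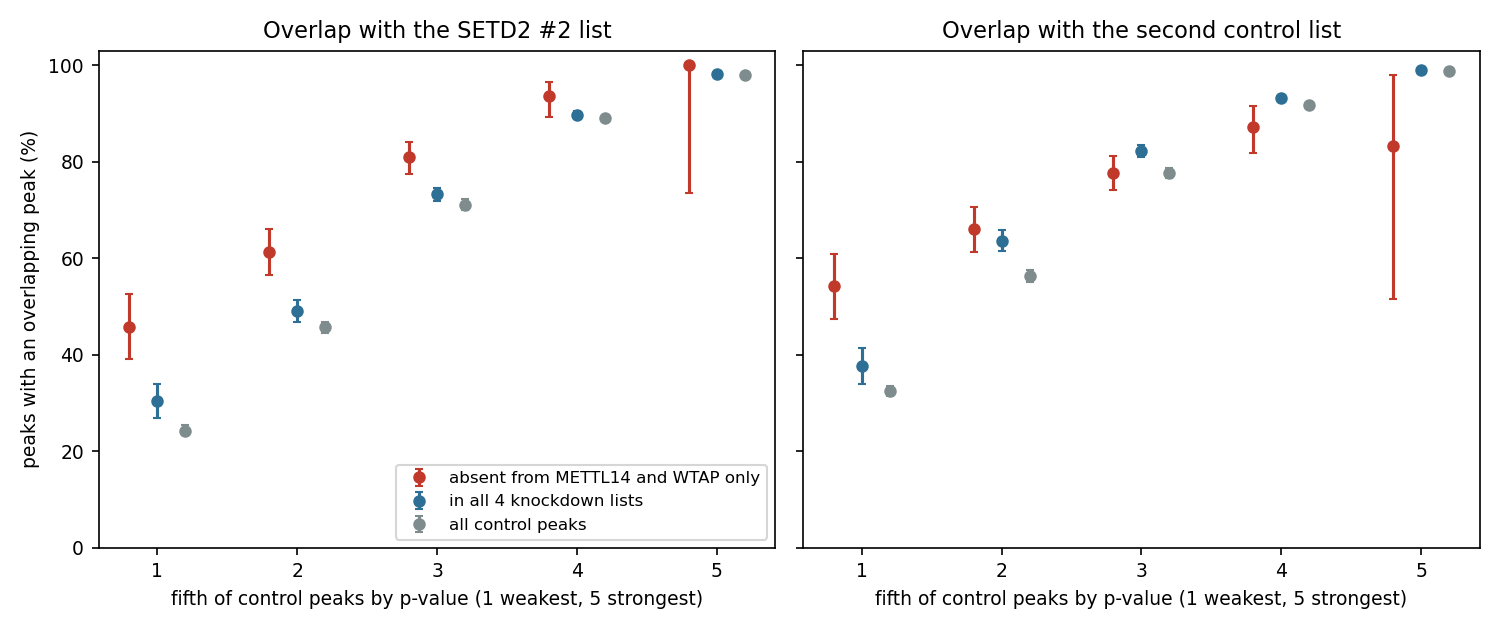
Share of control peaks that overlap a SETD2 #2 peak (left) and a second control peak (right) in 5 equal classes of control peaks by p-value, for METTL14/WTAP-absent peaks, peaks in all 4 knockdown lists and all control peaks, with exact 95% binomial intervals. In SETD2 #2 the red points lie above the others in each class, and in the second control they fall below the blue points from the third class on.

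Set against the control list, the enrichment of METTL14/WTAP-absent peaks in the second set was close to that in the control. The 1013 found in SETD2 #2 had a median ratio over the control of 1.01, and the 1018 found in the second control one of 0.914, with a median width ratio of 1 in each. For peaks in all 4 lists the ratios were 0.482 and 0.567. These groups differ in control fold enrichment, and the lists belong to different sets, so the ratios are a description.

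Where both second-set lists called the peak, the median enrichment was higher in SETD2 #2 than in the second control. Over 869 peaks the median fold enrichment was 3.02 in SETD2 #2, against 2.82 in the second control, with a median ratio of 1.06 and 41.7% of ratios below 1. For peaks absent from WTAP alone the median ratio was 1.01, and for those absent from METTL14 alone 0.983. For peaks in all 4 knockdown lists the median ratio was 0.867 with 64.9% below 1. The difference from peaks in all 4 lists was smaller among peaks of like fold enrichment. In the lowest class of control fold enrichment the median ratio was 1.09 (452 peaks), against 1.02 for peaks in all 4 lists. In the next class it was 1.04 (259 peaks), against 0.989, and in the third 1.02 (113 peaks), against 0.923. In the fourth class it was 0.810 (32 peaks), against 0.844. By p-value the ratio was 0.972 (83 peaks), against 0.901, in the weakest class, 1.02 (206 peaks), against 0.857, in the second, 1.06 (398 peaks), against 0.864, in the third and 1.16 (172 peaks), against 0.895, in the fourth. The weakest p-value class and the fourth fold enrichment class thus had ratios below 1. All control peaks in the lowest fold enrichment class had a median ratio of 1.04. A ratio above 1 was therefore not particular to the METTL14/WTAP-absent peaks.

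Peaks missing from only 1 of the METTL14 and WTAP lists were the most similar groups. The METTL14/WTAP-absent peaks had a median control fold enrichment of 3.09, against 5.22 for the 1004 control peaks absent from METTL14 alone and 3.84 for the 925 absent from WTAP alone. SETD2 #2 held 71.7% of the METTL14/WTAP-absent peaks, against 66.9% (63.9 to 69.8%) of those absent from METTL14 alone and 68.8% (65.7 to 71.7%) of those absent from WTAP alone. In the second control the shares were 72.0%, against 74.5% (71.7 to 77.2%) and 75.0% (72.1 to 77.8%). These intervals overlap those of the METTL14/WTAP-absent peaks. Among peaks absent from METTL14 alone, the median ratio of WTAP over control fold enrichment was 0.696 and the median width ratio 0.627, against 0.811 and 0.876 for peaks in all 4 lists. Among peaks absent from WTAP alone, those of METTL14 were 0.825 and 0.623, against 0.829 and 0.876. The remaining METTL14 calls were narrower than those of kept peaks at about the same fold enrichment ratio. At the peaks absent from WTAP alone, METTL3 and SETD2 #1 also had lower width ratios, 0.818 and 0.834, against 0.947 and 0.889 for kept peaks. These groups differ in control fold enrichment and were not matched, so the ratios are a description.

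The METTL14/WTAP-absent peaks were the 3′-most control peak of their gene more often than all control peaks were. Position here is the order among the control peaks of a gene, not the place along its transcript. Of the METTL14/WTAP-absent peaks, 31.8% lay between other control peaks and 17.3% were the only one of their gene. The 3′-most control peak of a gene with several peaks made up 34.3% (31.8 to 36.8%) of them, against 25.5% of all control peaks and 26.8% of peaks in all 4 lists. The 5′-most made up 16.6% (14.7 to 18.7%), against 25.5% and 25.1%. The other 5 patterns with 2 lists lacking the peak, which had weaker p-values, had 15.7 to 21.0% at the 3′-most position. Position goes with strength in these data, in opposite ways for p-value and fold enrichment. By p-value, the 3′-most share of all control peaks ranged from 20% in the weakest class to 32.3% in the strongest. By fold enrichment it fell from 33.0% in the lowest class to 19.1% in the highest. Within the fourth p-value class, 47.5% (40.5 to 54.6%) of the METTL14/WTAP-absent peaks were 3′-most, against 27% (25.9 to 28.2%) of peaks in all 4 lists. In the weakest p-value class it was 26.0% (20.4 to 32.2%), against 19.9% (17.0 to 23.1%). Weighted by p-value and fold enrichment together, the share for all control peaks was 28.8% and for peaks in all 4 lists 27%, both under 34.3%. Weighted by fold enrichment alone the gap to peaks in all 4 lists was small, with 34.3% of the METTL14/WTAP-absent peaks at the 3′-most position, against 32.0%, and 16.6% at the 5′-most position, against 16.6%. Peaks absent from WTAP alone were also 3′-most more often than 5′-most, with 29.7% and 20.5%. Those absent from METTL14 alone were not as a whole, with 26.9% and 28.2%. At like fold enrichment these groups came near the 34.3% of the METTL14/WTAP-absent peaks. Weighted by fold enrichment, 33.7% of those absent from METTL14 alone and 31.8% of those absent from WTAP alone were 3′-most. By both measures the shares were 32.8% and 31.0%, and by p-value alone 25.7% and 29.5%. In the fourth p-value class, 38.7% (32.4 to 45.3%) of those absent from METTL14 alone and 44.7% (36.3 to 53.3%) of those absent from WTAP alone were 3′-most. These intervals overlap that of the METTL14/WTAP-absent peaks. In the weakest p-value class the 3′-most shares were 14.6% for METTL14 alone and 17.0% for WTAP alone.

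Most of them lay in genes with another peak in the METTL14 and WTAP lists, which need not match a control peak. Another peak of the same gene stood in both the METTL14 and the WTAP list for 63.4% (60.8 to 65.9%) of the METTL14/WTAP-absent peaks, against 69.7% of all control peaks and 73.1% of peaks in all 4 lists. In both the METTL3 and the SETD2 #1 list another peak of the gene was found for 70.8% (68.3 to 73.1%), against 71.5% of all control peaks. The first share lay below that of all control peaks, and the second lay near it. The choice used the METTL14 and WTAP lists and so bears on the first share. Peaks of 1 gene are also not independent of each other, so nothing is read from its interval. Peaks absent from METTL14 alone had a like first share, 62.6% (59.6 to 65.7%). For those absent from WTAP alone it was 69.2% (66.1 to 72.2%). Whether fewer transcripts or less methylation per transcript lay behind an absent call cannot be told apart in these lists, which give no transcript level.

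The kept peaks of the same genes were also set against those of other genes. The 745 genes with both kinds held 1414 peaks found in all 4 lists, and their median ratio of METTL14 over control fold enrichment was 0.749, against 0.833 for 17749 such peaks of other genes. For WTAP it was 0.728, against 0.819, for METTL3 0.882, against 0.973, and for SETD2 #1 0.732, against 0.752. In METTL14, 76.7% of these peaks were narrower than in the control, against 63.1% in other genes, and in WTAP 76.0%, against 62.9%. In METTL3 the shares were 63.1% and 54.2%, and in SETD2 #1 they were 67.0% and 66.1%. In the strongest p-value class alone the ratio was 0.695 in METTL14, against 0.769 for other genes, and 0.672 in WTAP, against 0.758. The order did not hold in each class. In the second class METTL14 gave 1.11, against 1.09 for other genes, and METTL3 1.18, against 1.15, and in the third METTL14 gave 0.898, against 0.881, while WTAP was lower than in other genes in all 5 classes. In the second set their ratios over the control were higher, at 0.535 in SETD2 #2, against 0.478 for other genes, and 0.620 in the second control, against 0.563. Their own control fold enrichment was lower too, at a median of 7.97, against 9.38. The genes were chosen through absent calls in the METTL14 and WTAP lists. Lower ratios in those lists may follow in part from that choice, and nothing is read from them.

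The share of control peaks that were METTL14/WTAP-absent differed between chromosomes. Over 23 chromosomes with at least 300 control peaks it was highest on chromosome 13, with 38 of 435 peaks or 8.74% (6.26 to 11.8%), followed by 6.75% on chromosome 3, 6.52% on chromosome 4, 6.43% on chromosome 2 and 5.74% on chromosome 5. It was lowest on chromosome 22, with 27 of 1137 or 2.37% (1.57 to 3.44%), and on chromosome 16, with 2.40% (1.81 to 3.11%). The count on chromosome 13 was 1.82 times that given by its mix of p-value and fold enrichment classes, and on chromosome 22 it was 0.582 times. The converse peaks, absent from METTL3 and SETD2 #1 only, ran from 0.750% on chromosome 3 to 2.30% on chromosome 13. Chromosome 13 was thus highest for both patterns. It also had the lowest share of control peaks found in all 4 knockdown lists, 42.5%, so its excess was not particular to METTL14/WTAP-absent peaks. Of the control peaks of chromosome 13, 55.4% lay in a gene with another peak in both the METTL14 and WTAP lists, and of those of chromosome 22, 79.6%. These values are a description of neighbouring peaks that share genes and are not independent of each other.

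**Figure D5:**
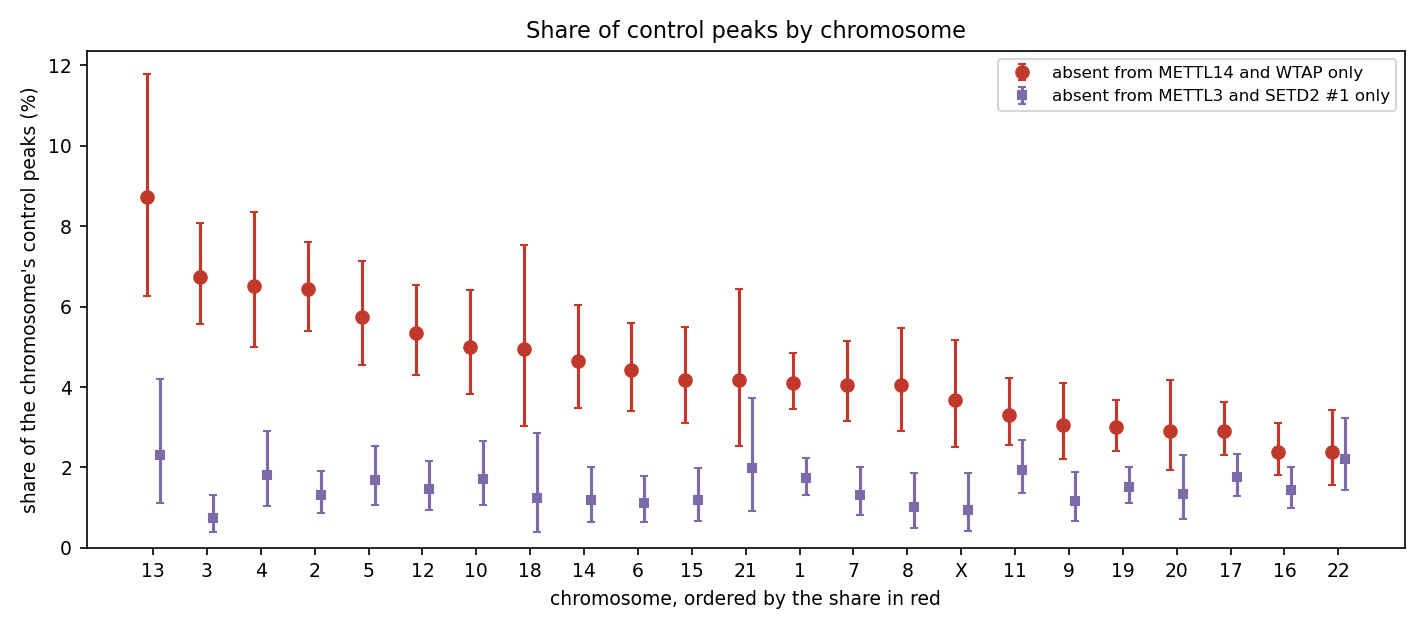
Share of each chromosome's control peaks that were METTL14/WTAP-absent (red circles) or absent from METTL3 and SETD2 #1 only (purple squares), with exact 95% binomial intervals, for the 23 chromosomes with at least 300 control peaks. The red share runs from 8.74% on chromosome 13 down to 2.37% on chromosome 22. The purple shares lie between 0.750% and 2.30% without the same order, though chromosome 13 is highest in both.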

How the data were processed

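m6A-seq libraries of input and IP RNA were grouped by their titles (14 groups of 3); 1 label field spells METTL14 as METLT14. Per the submitters' processing notes, FastQC 0.11.5, TopHat2 2.1.1 and hg19 were used, and per the labels exomePeak was run on replicates 1 to 3 together. Its version was not given in the sources used here, nor the annotation. Every deposited table holds a p-value per peak, its log10 and that of the FDR, and the fold enrichment. The p-value of IP over input is the authors', deposited per peak. The log10 columns were treated as deposited scores without a fixed range. Fold enrichment is the authors' ratio of IP over input, and all these were used only to describe, rank or filter peaks. Read depth is unknown.

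Repeated rows (11 to 21 per list) were counted once. Same-strand block overlap of at least 1 base was found with bedtools 2.31.1, and values were computed in Python 3.11.15 with pandas 2.3.3 and scipy 1.17.1, after a test on simulated data. A control peak with several matches took the one sharing most bases. Clopper-Pearson intervals are given at 95%. Named were the 10 peaks highest in fold enrichment and the 10 best in p-value, the 5 genes with most members, and the 5 best p-values in neither and in both second-set lists; of these a part is printed. The members and lists were chosen with earlier results of these data known. The identifiers could not be paired with symbols, and sequences were not used here. Weighting by strength was added after the data were seen.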

Additional observations from a re-analysis of the deposited data

How the results depend on the processing

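The criterion gave 980 to 2059 METTL14/WTAP-absent peaks under 8 alternatives, all within 1.5 times of 1413. Whole spans, either strand, repeated rows kept and 1 peak per gene moved no share or median beyond its interval. When shared blocks had to cover 50% of each peak, the median fold enrichment was 4.22, the SETD2 #2 share 61.9% and the second control share 62.7%. With an FDR of at most 1e-05 in every list, the median was 4.06, the SETD2 #2 share 68.0% and the share of peaks whose gene had another peak in both METTL14 and WTAP lists 49.5%. With a fold enrichment of at least 3 in every list, these were 5.08, 55.5% and 53.5%, and the second control share was 56.9%. The shorter deposited lists, which hold exactly the peaks with p of at most 1e-05 and fold enrichment of at least 2, gave 4.06, 67.5% and 50.5%, and 68.0% in the second control. The medians under a minimum fold enrichment are higher by construction; the cause of the other shifts was not tested.

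The comparisons by strength and position were repeated under all of these alternatives except 1 peak per gene. Weighted by p-value and fold enrichment together, the SETD2 #2 share stayed above those of all control peaks and of peaks in all 4 lists under each, most narrowly with 50% overlap, 61.9% against 60.4% for peaks in all 4 lists. Weighted by fold enrichment alone, the order against peaks in all 4 lists turned round, 71.7% against 75.5%, and so it did in the second control, 72.0% against 78.3%. With both measures, the second control share, 72.0% against 66.9% for peaks in all 4 lists, turned below them with 50% overlap (62.7% against 66.0%) and with fold enrichment of at least 3 (56.9% against 58.5%). Its excess over all control peaks without weighting turned round with fold enrichment of at least 3 (56.9% against 63.2%) and in the shorter lists (68.0% against 70.4%). The 3′-most share was above those of both groups under each of these alternatives.

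No paired analysis was possible because each list joins replicates 1 to 3, and for the same reason none was left out. Read depth per library is unknown, so how much of an absent call depth sets is unknown too.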
